A study of Huso dauricus x Acipenser schrenckii with 16 samples.

Results

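The ovary of adult sturgeon females was examined for the transcripts of the estrogen receptors, the nuclear receptors through which estradiol acts on gene transcription. The rows were chosen by name and annotation, with earlier results of these data known. Every row described as estrogen receptor or estrogen receptor beta was taken. This gave 4 of 41685 genes in the deposited table: esr1 and LOC117402328, both described as estrogen receptor, and LOC117419823 and LOC117963936, both described as estrogen receptor beta. Another 26 rows carry the word estrogen in their description (estrogen-related receptors, binding proteins and others) and were not counted as receptors. All fish were hybrids, bred from Huso dauricus females and Acipenser schrenckii males, under normal farm conditions. They came from a population with a high caviar yield (8 libraries, called H1 to H8) and a population with a low yield (8 libraries, L1 to L8). The labels give 1 ovary library per female and neither the age of the fish nor the stage of the ovary. Each yield group is its own population, so yield and population cannot be told apart.

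Estrogen receptors rest in the cell in a complex with heat shock proteins. On binding estradiol they pair up, attach to DNA and recruit coactivators, while corepressors hold transcription down. In fish the alpha receptor is best known for switching on vitellogenin, the yolk precursor, in the liver, and both receptor types are present in the ovary. Estradiol itself is made from androgens by aromatase in the follicle cells around the oocyte. Sturgeons descend from an ancestor with a duplicated genome, and many of their genes are present as paired copies.

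The libraries held 37362125 to 60873931 counts. The high-yield libraries fell into 4 near-identical pairs (H1 with H5, H2 with H6, H3 with H7 and H4 with H8). Spearman's rho was 0.989 to 0.994 within these pairs and at most 0.970 over the 116 other pairs of libraries. Counts within a pair varied 4.16 to 5.45 times as much as Poisson sampling gives, and at least 21.6 times in the other pairs. Each pair was therefore counted as 1 sample, which leaves 4 high-yield and 8 low-yield samples, and high-yield means and SDs are over pair means. On the first principal component of all tested genes (33.5% of the variance), 4 samples had negative scores, namely H1 with H5 (-136), H2 with H6 (-112), L2 (-124) and L5 (-232). The other 8 samples scored 43.7 to 112. These sides cut across the yield groups, and L2 and L5 also held the highest marker levels of connective tissue and blood cells, given with the receptor values.

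The row named esr1 was the most abundant receptor transcript in most samples. Levels are given as FPKM (fragments scaled by transcript length and by the mapped fragments of the library), as deposited, because levels of different genes can be compared only per length. In high yield, esr1 stood at 14.6 FPKM in H1 and 14.5 in H5, at 9.66 in H2 and 9.02 in H6, at 3.11 in H3 and 2.58 in H7, and at 2.81 in H4 and 2.63 in H8. In low yield it stood at 1.09 in L1, 8.58 in L2, 1.43 in L3, 1.78 in L4, 12.9 in L5, 2.43 in L6, 2.79 in L7 and 5.11 in L8. The groups overlapped, and the 4 highest samples were the same 4 that had negative scores on the first principal component, 2 from each yield group. After TMM scaling, which allows for a few very abundant genes, L5 was the highest at 92.9 CPM (counts scaled to library size), above H1 with H5 at 78.8. The mean was 7.37 ± 5.72 FPKM in high yield (SD, n = 4) and 4.51 ± 4.19 in low yield (SD, n = 8). The fitted log2 fold change, high over low, was 0.66 (SE 0.64), which did not pass (edgeR quasi-likelihood test, adjusted p = 0.741). Without L2 and L5 the low-yield mean was 2.44 ± 1.45 FPKM (SD, n = 6) and the log2 fold change 1.51 (SE 0.49, edgeR adjusted p = 0.281).

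The other row described as estrogen receptor, LOC117402328, was low in all but L2 and L5. It stood at 1.11 FPKM in H1 and 1.04 in H5, at 0.37 in H2 and 0.54 in H6, at 0.73 in H3 and 0.53 in H7, and at 0.30 in H4 and 0.37 in H8. In low yield it reached 5.78 FPKM in L2 and 12.7 in L5, and stood at 0.49 in L1, 0.31 in L4, 0.19 in L6, 0.47 in L7 and 0.60 in L8. In L3 it had 0 of 37698095 counts, which allows up to 3 counts, or 0.0796 CPM, by counting error alone. The 6 low-yield libraries other than L2 and L5, at 0 to 0.602 FPKM, overlapped the high-yield pair means of 0.335 to 1.07. Means were 0.624 ± 0.323 FPKM in high yield (SD, n = 4) and 2.56 ± 4.50 in low yield (SD, n = 8), or 0.344 ± 0.223 without L2 and L5 (SD, n = 6). The log2 fold change was -2.07 (SE 1.38, edgeR adjusted p = 0.654). It was -0.45 without L5 and 0.79 without L2 and L5, so its sign rests on these libraries.

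**Figure D1:**
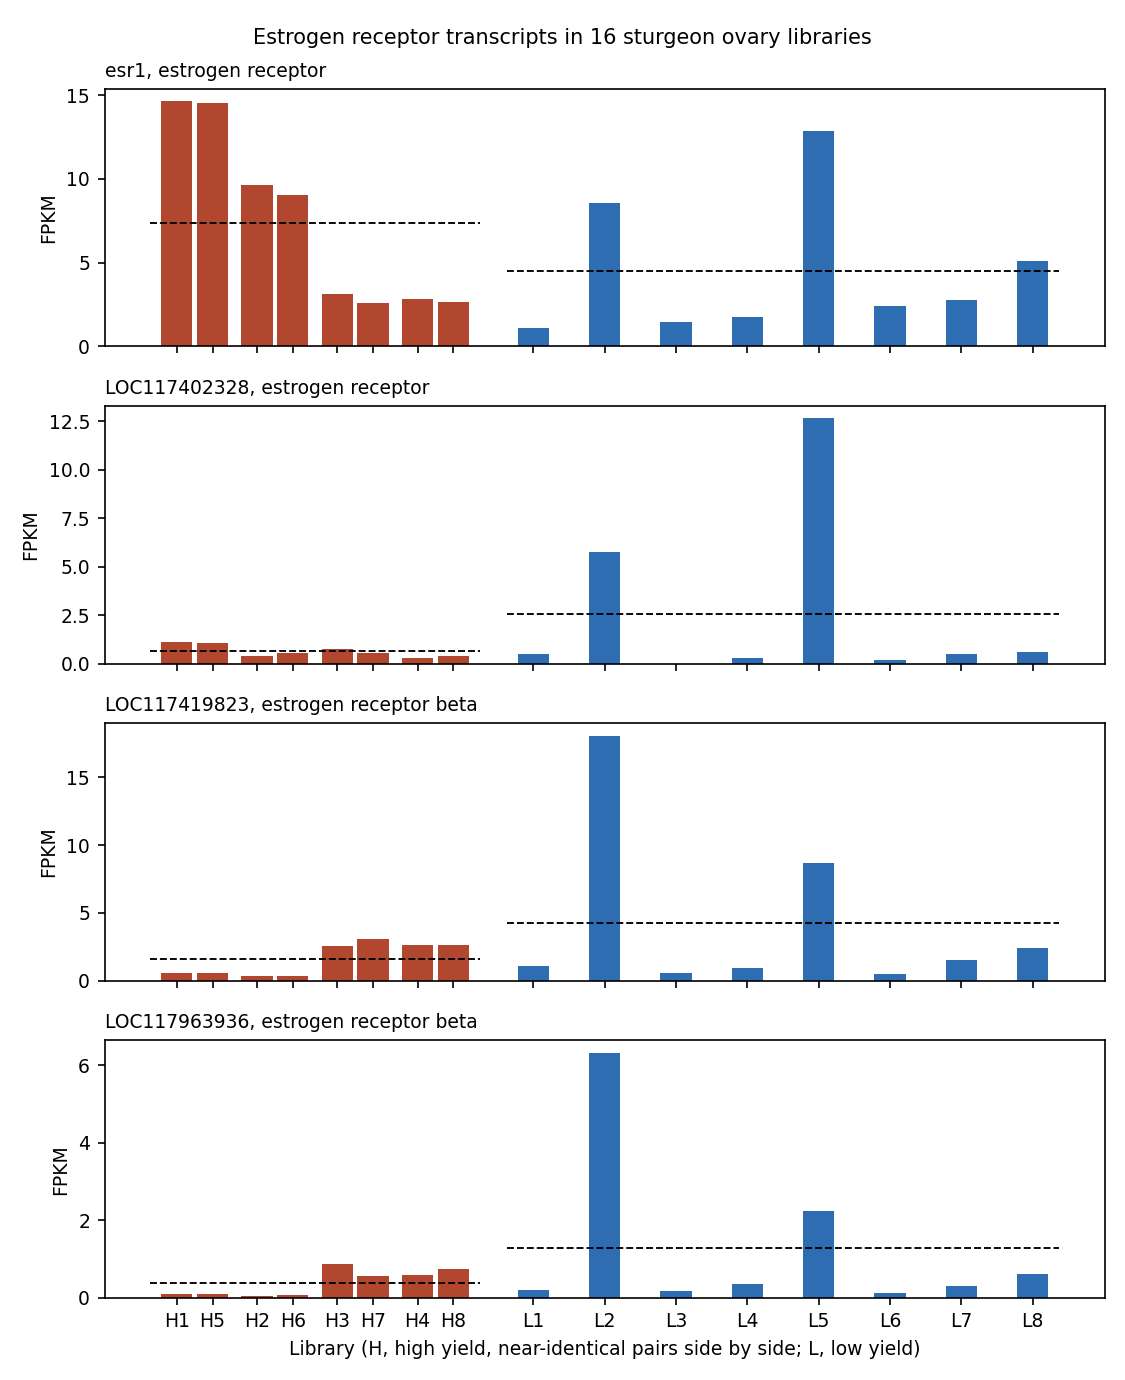
FPKM of the 4 estrogen receptor rows in each of 16 ovary libraries, with 1 panel per row and its own vertical scale. Red bars are high-yield libraries with near-identical pairs side by side, blue bars are low-yield libraries, and dashed lines are group means (over 4 pairs or 8 libraries). H1, H5, H2, H6, L2 and L5 are highest for esr1, whereas L2 and L5 are highest for the other 3 rows.

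Estrogen receptor beta was represented mainly by LOC117419823. It stood at 0.57 FPKM in H1 and 0.58 in H5, at 0.37 in H2 and 0.32 in H6, at 2.59 in H3 and 3.06 in H7, and at 2.60 in H4 and 2.67 in H8. In low yield it stood at 1.08 in L1, 18.1 in L2, 0.54 in L3, 0.97 in L4, 8.71 in L5, 0.52 in L6, 1.51 in L7 and 2.44 in L8. High yield thus split in the opposite order to esr1, with the beta receptor lowest in the pairs H1 with H5 and H2 with H6, where esr1 was highest. L2 and L5 were high in both. Means were 1.59 ± 1.32 FPKM in high yield (SD, n = 4) and 4.23 ± 6.21 in low yield (SD, n = 8), or 1.18 ± 0.720 without L2 and L5 (SD, n = 6). The log2 fold change was -1.10 (SE 0.95, edgeR adjusted p = 0.714), and 0.49 without L2 and L5.

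The other beta row, LOC117963936, was also highest in L2 and L5, at a lower level. It was lowest of all samples in H1 with H5 and H2 with H6. LOC117419823 was also lowest of all in H2 with H6, but in H1 with H5 it was above L3 and L6. The FPKM of LOC117963936 was 0.10 in H1, 0.09 in H5, 0.06 in H2, 0.07 in H6, 0.88 in H3, 0.57 in H7, 0.59 in H4 and 0.75 in H8. In low yield it was 0.19 in L1, 6.32 in L2, 0.17 in L3, 0.35 in L4, 2.23 in L5, 0.13 in L6, 0.29 in L7 and 0.63 in L8. Means were 0.389 ± 0.356 FPKM in high yield (SD, n = 4) and 1.29 ± 2.15 in low yield (SD, n = 8), or 0.292 ± 0.183 without L2 and L5 (SD, n = 6). The log2 fold change was -1.39 (SE 1.06, edgeR adjusted p = 0.685), and 0.44 without L2 and L5. All 4 rows passed the low-count filter, and 0 of 4 passed the test, against 0 of 30009 genes tested (0%). At an unadjusted p under 0.05 the receptors again numbered 0 of 4, against 2557 genes (8.52%). DESeq2 on the same 12 samples called 86 genes (0.287%) and edgeR on 16 separate libraries called 16 of 27653 (0.0579%), in both cases without a receptor. At an unadjusted p under 0.05 the fit of 16 libraries held 1 receptor, LOC117402328 (edgeR adjusted p = 0.234), against 19.8% of all genes. In the same way esr1 was under 0.05 unadjusted without L5 (edgeR adjusted p = 0.352, against 11.8% of genes) and without L2 and L5 (edgeR adjusted p = 0.281, against 12.9%).

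**Figure D2:**
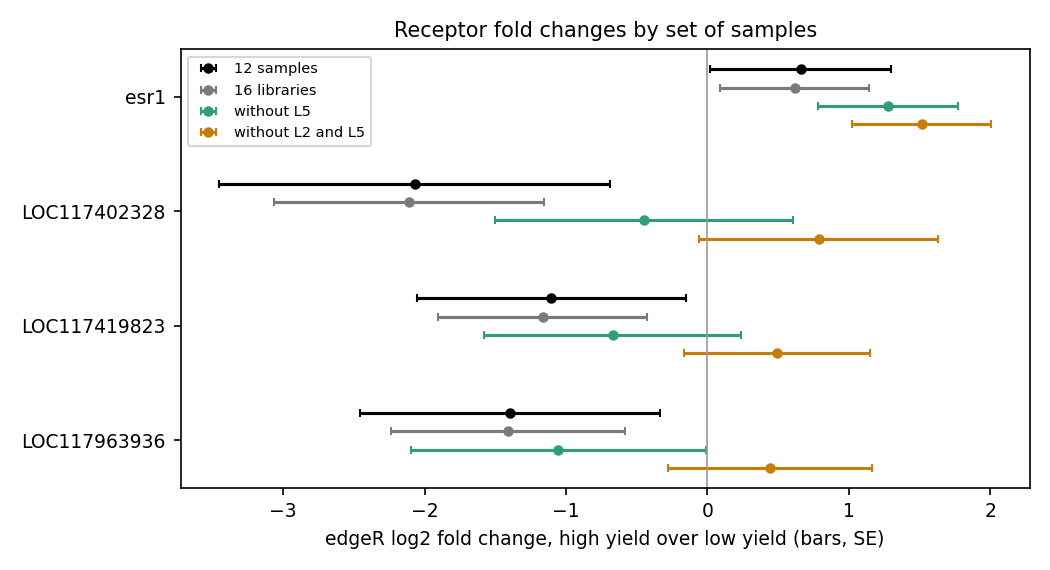
Log2 fold change, high yield over low yield, of the 4 receptor rows from edgeR, with bars for the SE. Colours are the 12 samples (black), the 16 libraries taken separately (grey), the samples without L5 (green) and without L2 and L5 (orange). The estimate for esr1 is above 0 in each set, from 0.62 to 1.51, while the other 3 rows lie below 0 with L2 and L5 and at 0.44 to 0.79 without them.

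The order of the levels was stable only in part. In 11 of 12 samples esr1 was the highest of the 4 rows, the exception being L2, where LOC117419823 was higher. It was above LOC117402328 in 12 of 12 samples, but in L5 by a ratio of only 1.02, which is less than the largest fold of 1.20 seen for esr1 within a near-identical pair. The beta row LOC117963936 was below LOC117419823 in 12 of 12 samples, and the ratio of the pair stayed between 2.71 and 5.49 (mean 4.06 ± 0.932, SD, n = 12). The lowest place was held by LOC117402328 in 6 samples and by LOC117963936 in the other 6. In H3 with H7 and in H4 with H8, esr1 and LOC117419823 differed by ratios of 1.01 and 1.03, and in L1 by 1.01. These ratios are again less than the largest folds within near-identical pairs, 1.20 for esr1 and 1.18 for LOC117419823. In H7 and H8 taken alone, LOC117419823 was the higher, at 3.06 against 2.58 FPKM and 2.67 against 2.63. The top place was thus not settled in these pairs. The summed level of the 4 rows was 16.3, 10.2, 7.02 and 6.36 FPKM in the high-yield pairs in the order of their numbers, 38.8 in L2, 36.5 in L5 and 2.14 to 8.77 in the 6 others of low yield. Of this sum, esr1 made up 89.3% and 91.5% in the first pairs of high yield and 40.5% and 42.8% in the others, and 22.1% to 74.5% in low yield. All ratios and shares between rows rest on the transcript lengths behind FPKM. Ratios between rows, here and below, were taken with 0.01 FPKM added to each level, and shares without it. The median length implied was 5998 bases for esr1, 1632 for LOC117402328, 2896 for LOC117419823 and 6477 for LOC117963936. By counts, esr1 had 3653 and LOC117402328 967 in L5, and LOC117419823 had 2297 and LOC117963936 1796 in L2.

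The balance of alpha to beta separated the high-yield females from each other. The ratio of esr1 to LOC117419823 was taken with 0.01 FPKM added to each level. It was 25.0 in H1 with H5, 26.2 in H2 with H6, 1.01 in H3 with H7 and 1.03 in H4 with H8. In low yield it was 1.01 in L1, 0.475 in L2, 2.61 in L3, 1.83 in L4, 1.48 in L5, 4.61 in L6, 1.84 in L7 and 2.09 in L8. The first pairs of high yield were above every low-yield library, and the other pairs were level with L1 and above L2 alone. On the log2 scale, with the same 0.01 FPKM added, the mean was 2.35 ± 2.68 in high yield (SD, n = 4) and 0.74 ± 0.97 in low yield (SD, n = 8). The difference of 1.62 (SE 1.38) was smaller than the SD within high yield and did not pass an exact permutation test, two-sided, with 495 arrangements (p = 0.133, where the smallest possible is 0.0020202). Without the pair H3 with H7 it was 2.40 (exact permutation p = 0.0424), without H4 with H8 it was 2.38 (exact permutation p = 0.0545), and without H1 with H5 or H2 with H6 it was 0.85 or 0.83 (exact permutation p = 0.436 in both).

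**Figure D3:**
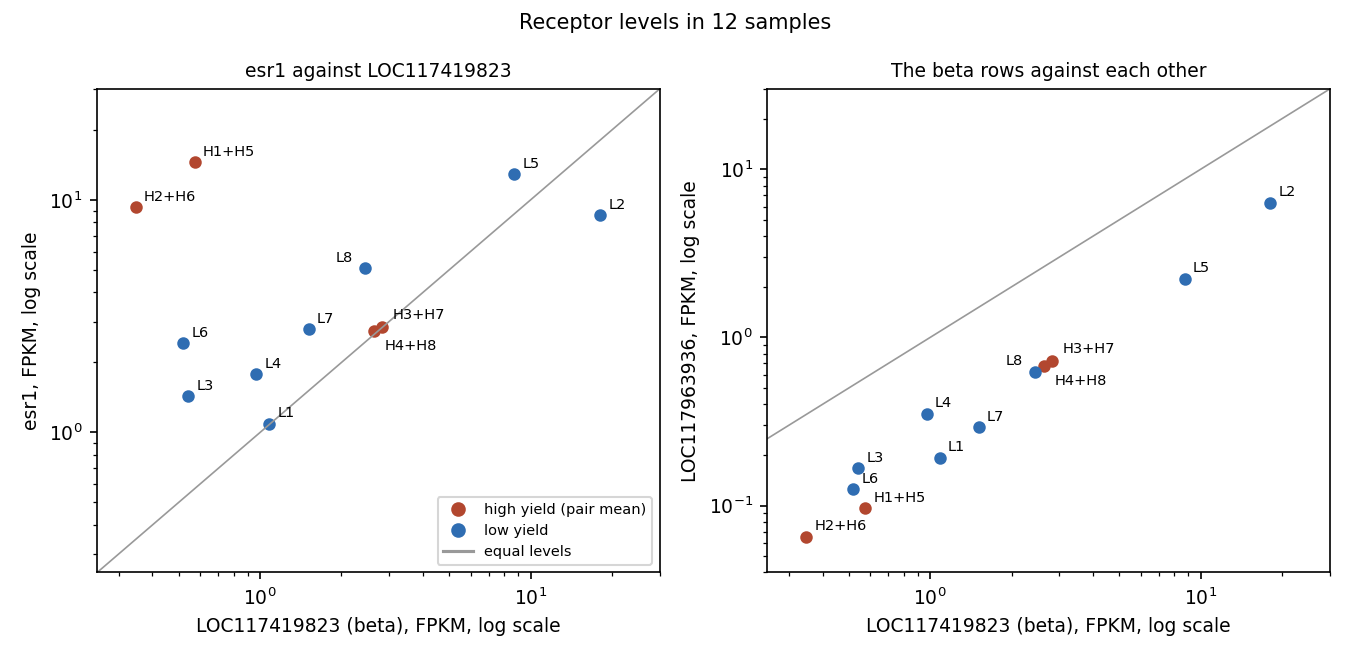
FPKM in 12 samples on log axes, with esr1 (left) and LOC117963936 (right) against LOC117419823. Red points are high-yield pair means, blue points low-yield libraries, and the grey line marks equal levels. On the left H1 with H5 and H2 with H6 stand apart at ratios of 25.0 and 26.2, while on the right all 12 samples lie below the line at ratios of 2.71 to 5.49. These ratios were taken with 0.01 FPKM added to each level, whereas the points show FPKM without it.

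All receptor rows varied more between fish than most genes did. The SD of log2 CPM over 12 samples was 1.22 for esr1, 2.29 for LOC117402328, 1.67 for LOC117419823 and 1.83 for LOC117963936, against a median of 0.712 over all genes tested. These SDs were larger than those of 72.0%, 95.3%, 82.7% and 86.6% of tested genes, whatever the level of those genes. The SD of LOC117402328 rests in part on L3, where a count of 0 gave a log2 CPM of -4.95. That value is set by the small count added before the log, and the next lowest was -1.65 in L6. Within near-identical pairs the largest fold between libraries was 1.20, 1.44, 1.18 and 1.55 for the rows in that order. These are 4 separate genes on 4 different sequences of the assembly. Their spans are 40959 bases for esr1, 63296 for LOC117402328, 21859 for LOC117419823 and 22510 for LOC117963936. How reads shared between close copies were counted is not given in the sources used here, so the split within the alpha rows and within the beta rows is uncertain.

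The closest relation among the receptor rows was that between the beta rows. Pearson's r of log2 CPM between the beta rows was 0.98 over 12 samples, and 0.96 over the 10 samples without L2 and L5. Between esr1 and LOC117402328 it was 0.69 over 12 samples and 0.52 over the 10. Between esr1 and LOC117419823 it was 0.27 over 12, 0.85 over the 8 low-yield libraries and -0.21 over the 10 without L2 and L5. Between LOC117402328 and LOC117419823 it was 0.72 over 12, 0.90 over the 8 low-yield libraries and 0.36 over the 10. These values are descriptions, since the samples share the separation on the first principal component. Those with LOC117402328 also include L3, where its count of 0 gave a log2 CPM of -4.95. Without L2 and L5 the r between alpha and beta rows was lower in each case printed, and that between the beta rows was little changed.

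Among 22403 other named genes with a mean CPM of at least 1, the 5 closest in pattern to each receptor were listed by the same r over 12 samples. For esr1 they were LOC117414921 (transmembrane protein 178b, r = 0.97), LOC117396859 (dna polymerase epsilon subunit 3, 0.96), LOC117422358 (cadherin-like protein 26, 0.95), LOC131730024 (protein fmc1 homolog, 0.95) and LOC117973483 (parvalbumin-2, 0.95). The first of these stood at 7.13 FPKM in H1 with H5, 3.42 in H2 with H6, 0.751 in L2 and 2.71 in L5, and at most at 0.210 in any other sample. For LOC117402328 the closest were LOC117413283 (platelet-derived growth factor receptor beta, a receptor of mural and stromal cells, r = 0.98), LOC117404574 (lysine-specific demethylase 6b, 0.96), LOC117414133 (mimecan, a matrix proteoglycan, 0.96), LOC117417342 (adenylate kinase isoenzyme 5, 0.96) and LOC117432906 (cdc42 effector protein 1, 0.95). The growth factor receptor stood at 9.30 FPKM in L2 and 11.1 in L5. All 5 of these genes stood at 0 in L3, where the estrogen receptor row also had no count. The r values of this list thus rest in part on L3, where a small added count sets the log2 CPM. For LOC117419823 the closest was the other beta row (r = 0.98), then LOC131727273 (collagen alpha-1(vi) chain, 0.97), LOC131709240 (an intermediate filament protein, 0.97), LOC117400895 (a type I keratin, 0.97) and zgc:101858 (0.96). For LOC117963936, after LOC117419823, they were LOC117424127 (rab15 effector protein, 0.96), LOC117394838 (leukocyte surface antigen cd53-like, 0.96) and the SMAD7-type rows LOC117409348 (0.96) and LOC117421258 (0.95), named for an inhibitor of TGF-beta signalling.

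Summed marker levels of other cell types were set beside the receptor levels. In bulk tissue, fewer cells of a type and less RNA per cell cannot be told apart. The summed level of 23 fibroblast marker rows was 46.4 to 104 FPKM in high yield, 50.3 to 107 in 6 low-yield libraries, 938 in L2 and 1197 in L5. Leukocyte markers (22 rows) summed to 12.2 to 25.1 in high yield, 7.23 to 60.4 in the 6, 416 in L2 and 267 in L5, and endothelial markers (23 rows) to 9.97 to 18.7, 10.6 to 23.9, 64.2 and 109. Smooth muscle markers (17 rows) summed to 53.8 to 105 in high yield, 26.0 to 62.3 in the 6, 223 in L2 and 1809 in L5. Thus L2 and L5, with the highest levels of LOC117402328 and of both beta rows, also had the highest sums of these 4 lists. In high yield, H1 with H5 and H2 with H6, where esr1 was highest, had fibroblast sums of 97.0 and 46.4 FPKM, and H3 with H7 and H4 with H8 had 73.8 and 104. Within high yield, endothelial sums split as esr1 did, at 18.7 and 18.2 against 9.97 and 11.7 FPKM. The 6 low-yield libraries other than L2 and L5 did not keep this order throughout. L1 and L3, with the lowest esr1 at 1.09 and 1.43 FPKM, had endothelial sums of 21.4 and 17.3. L8, the highest of the 6 in esr1, also had the highest of their sums at 23.9.

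Markers of the cells known to carry estrogen signalling in the follicle were also measured. Granulosa markers (32 rows) summed to 7.03 to 12.1 FPKM in high yield, 11.99 to 78.5 in 6 low-yield libraries, 79.4 in L2 and 21.5 in L5. In the high-yield pairs in the order of their numbers these sums were 8.75, 7.03, 12.1 and 11.2 FPKM. In L1, L3 and L4 they were 44.0, 78.5 and 76.5 FPKM. There foxl2 (LOC117416901) stood at 0.0869, 0.196 and 0.270 and fshr (LOC117410409) at 0, 0.0552 and 0. Other rows of the list thus held most of those sums. Theca markers (16 rows) summed to 4.94 to 19.02 in high yield, 0.893 to 30.8 in the 6, 173 in L2 and 64.4 in L5. The row lhcgr alone held most of the largest of these sums, at 160 FPKM in L2, 53.6 in L5, 29.6 in L8 and 17.7 in H4 with H8. That row had only 1596 counts over all samples and stood at 0 in L3, where the theca sum was 0.893. Oocyte markers (66 rows), the defining markers of the labelled tissue, were present in every sample and summed to 25835 to 39201 in high yield, 28635 to 40874 in the 6, 31212 in L2 and 100628 in L5. Most of these rows are described as zona pellucida sperm-binding protein 3 or its -like form. Within high yield the oocyte sums too were higher in H1 with H5 and H2 with H6 (35343 and 39201) than in H3 with H7 and H4 with H8 (25835 and 28526). Low yield did not keep this order with esr1. L1 and L3, the lowest in esr1, had oocyte sums of 39682 and 40874, while L2 and L5, the highest, had 31212 and 100628. Liver markers (15 rows) reached at most 7.27 and erythrocyte markers (5 rows) at most 1.44. No matched row of these lists was at 0 in every sample, and the part of cell makeup in the receptor levels was not tested.

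**Figure D4:**
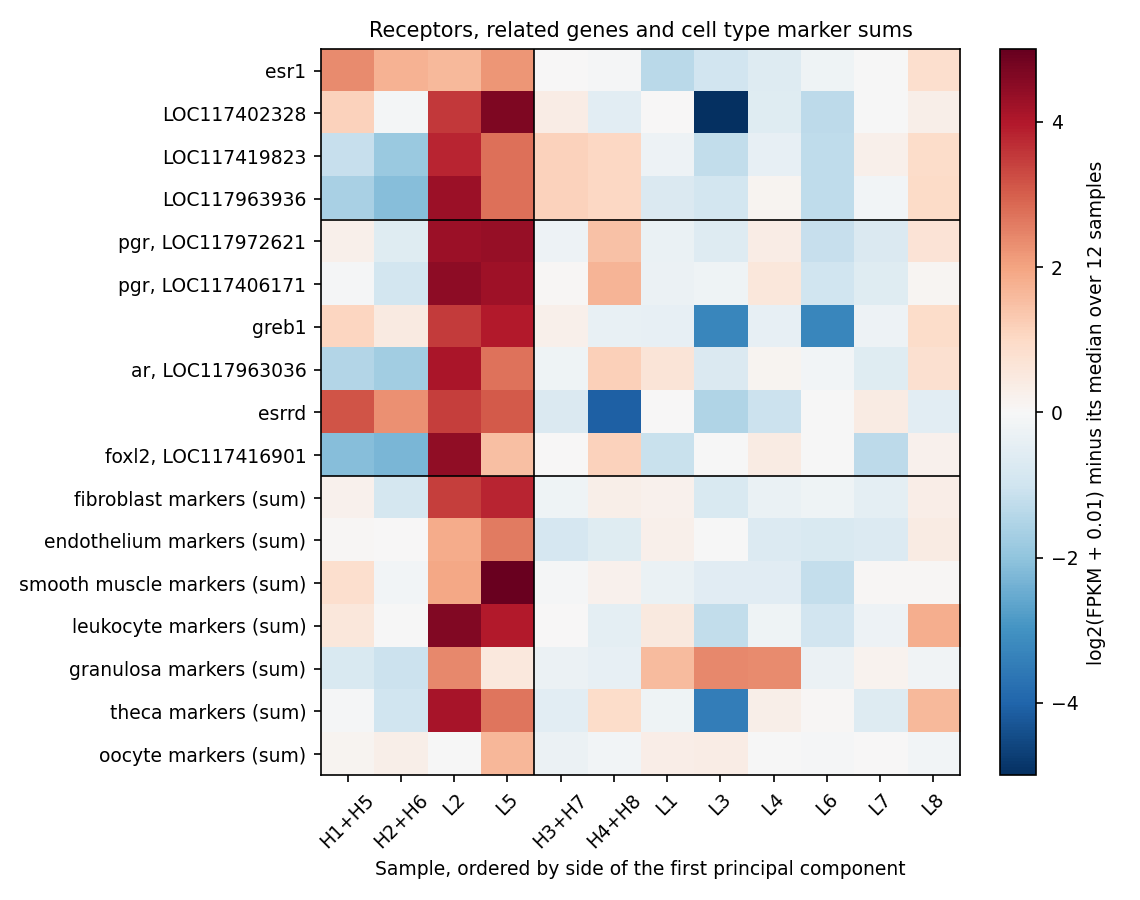
Log2(FPKM + 0.01) of the receptors (top), related genes (middle) and summed cell type markers (bottom), each minus its median over 12 samples. Columns are samples, with the 4 that scored negative on the first principal component left of the vertical line. L2 and L5 are red in nearly all rows, esr1 and esrrd are red in all 4 columns on the left, and the beta rows are blue in H1 with H5 and H2 with H6.

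The genes around the receptors were counted in 8 lists covering ligand, partners and targets. Of 260 matched rows, 219 were tested and 0 were called by edgeR, by edgeR on 16 libraries or by DESeq2. At an unadjusted p under 0.05, 13 were higher in high yield and 9 lower, 22 in all or 10.05%, against 5.18% higher and 3.35% lower over all genes. Their median log2 fold change was -0.19, against -0.02 over all genes tested. With L2 and L5 left out, the medians of the 8 lists ran from -0.082 to 0.36, against 0.029 over all genes. The lowest was that of partner transcription factors, at -0.85 with these libraries, and the highest that of ligand synthesis, at 0.037. The count was 3 higher and 0 lower of 26 tested for ligand synthesis, 1 and 0 of 17 for ligand removal, 0 and 1 of 12 for other receptors, and 5 and 4 of 49 for coactivators. It was 1 and 0 of 35 for corepressors, 1 and 3 of 21 for chaperones, 0 and 1 of 35 for partner transcription factors, and 2 and 0 of 31 for textbook targets.

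Ligand synthesis showed little aromatase. The main aromatase row, LOC117428169, stood at 0.793, 0.528, 0.552 and 0.619 FPKM in the high-yield pairs. In low yield it was at 0.867 in L1, 0.641 in L3, 0.303 in L4, 0.760 in L5, 0.259 in L7 and 0.529 in L8, with 0 counts in L2 and L6. Its log2 fold change was 0.44 (SE 1.09, edgeR adjusted p = 0.907). L2, with the highest beta receptor, thus had no aromatase count in this row, and 6 counts in the other row, LOC117429562. The synthesis genes with the smallest p were 2 rows described as very-long-chain 3-oxoacyl-coa reductase and matched to hsd17b12 (LOC117435147, log2 fold change 0.59, and LOC117432394, 0.47) and fdx1 (LOC117406416, the electron donor of steroid cytochromes, 0.71). The first of these stood at 35.1 ± 4.82 FPKM in high yield and 23.5 ± 5.58 in low yield, and edgeR gave adjusted p of 0.580, 0.584 and 0.580 for the 3.

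Among genes of ligand removal, the smallest p belonged to comt (LOC117431088, which methylates catechol estrogens, log2 fold change 0.69), cyp1a1 (LOC117963034, which hydroxylates estradiol, -1.55) and hsd17b8 (0.66), with edgeR adjusted p of 0.580, 0.584 and 0.593. The cyp1a1 row stood at 9.14 ± 6.83 FPKM in high yield and 28.2 ± 18.5 in low yield, where L5 was lowest at 1.30. The log2 fold change of that row was -1.86 without L2 and L5.

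None of the other receptors passed the test. The membrane receptor gper1 had a count in L4 alone, at 0.0401 FPKM, and the esrrb row with most counts, LOC117422071, reached at most 0.0838 FPKM, so neither was tested. The other esrrb row, LOC117416686, stood at 2.63 FPKM in L2 on 16 counts and at 0.561 in L5 on 4 counts. The row esrrd, described as estrogen-related receptor gamma, an orphan receptor that does not bind estradiol, was at 1.498 FPKM in H1 with H5, 0.817 in H2 with H6, 1.88 in L2 and 1.44 in L5. It was between 0 and 0.216 in the other 8 samples, so the same 4 samples were highest as for esr1. Its log2 fold change was 0.27 (edgeR adjusted p = 0.954), and 2.06 without L2 and L5. Other rows matched to esrrg did not share this order. The row esrrga was highest in L1 (0.825 FPKM), and LOC117403235 (0.232) and LOC117416048 (0.0915) were highest in H4 with H8. The androgen receptor row LOC117430331 was at 9.96 FPKM in L2 and 3.77 in L5, 0.216 to 0.484 over the remaining low-yield fish and 0.128 to 0.340 in high yield. The log2 fold change of this row was -3.05 (SE 1.10, edgeR adjusted p = 0.574), and -0.88 without L2 and L5, and that of the other row, LOC117963036, was -1.73 (edgeR adjusted p = 0.607) and -0.22.

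The progesterone receptor, a classical estrogen target in mammals, was matched to LOC117972621 and LOC117406171. Their counts in L2 were 3072 and 3060 but their FPKM 541 and 60.1, so the level depends on the length given to each row. LOC117972621 stood at 33.7, 18.8, 23.6 and 77.4 FPKM in the high-yield pairs, at 541 in L2 and 579 in L5, and at 12.9 to 44.9 in the 6 others of low yield. LOC117406171 stood at 1.40 to 8.62 FPKM in high yield, 50.6 in L5 and 1.34 to 4.02 in the 6 others. The samples with the highest esr1 in high yield were thus not those with the highest progesterone receptor, which was highest in H4 with H8. The log2 fold change of LOC117972621 was -1.98 (SE 1.13, edgeR adjusted p = 0.617), and 0.56 without L2 and L5. The target greb1 was at 0.194 FPKM in H1 with H5, 0.121 in H2 with H6, 0.106 in H3 with H7, 0.0643 in H4 with H8, 1.07 in L2 and 1.48 in L5, and at most 0.169 elsewhere. Its log2 fold change was -1.56 (edgeR adjusted p = 0.726), and 0.91 without L2 and L5.

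Other targets included the yolk precursor and the gonadotropin receptors. Of 4 vitellogenin rows, none exceeded 0.886 FPKM in any sample, and the 2 that were tested had log2 fold changes of -0.80 (LOC117405248) and -0.14 (LOC117416999), with edgeR adjusted p of 0.839 and 0.960. The gonadotropin receptors, which follicle cells use to respond to the pituitary, had log2 fold changes of -1.40 for fshr (LOC117410409) and -2.0 for lhcgr, which stood at 160 FPKM in L2 and 53.6 in L5 (edgeR adjusted p = 0.765 and 0.644). Without L2 and L5 these were 0.32 and -0.57. The targets with the smallest p were xbp1 (LOC117426296, a factor of the unfolded protein response, 41.2 ± 13.2 against 23.8 ± 6.42 FPKM, log2 fold change 0.79), mycb (1.18) and igfbp5 (LOC117426996, -1.27). Their edgeR adjusted p were 0.574, 0.578 and 0.606. The median of this list was -0.34, and 0.25 without L2 and L5.

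No coactivator or corepressor of the receptor passed the test. The p160 coactivators had log2 fold changes of -0.93 for ncoa1, -0.15 for ncoa2 (LOC117394428) and -0.31 for ncoa3 (LOC117420498), with edgeR adjusted p of 0.734, 0.917 and 0.833. Without L2 and L5 they were -1.0, 0.26 and 0.26. The smallest p among coactivators belonged to smarca4 (LOC117966877, the motor of a chromatin remodelling complex, log2 fold change -1.04), cited1 (LOC117412146, 0.60) and pelp1 (LOC117969364, -1.37), each at an edgeR adjusted p of 0.574. The corepressors ncor1 (LOC117964310) and nrip1 (LOC117973060) had log2 fold changes of -0.80 and -0.14 (edgeR adjusted p = 0.593 and 0.933), and the row named ncor1 had -0.88 (edgeR adjusted p = 0.587). Without L2 and L5 these were -0.24, 0.036 and -0.26. The corepressor with the smallest p was the deacetylase hdac2 (LOC117411603), at 66.0, 54.0, 18.6 and 29.2 FPKM in the high-yield pairs, 35.9 in L2, 31.1 in L5 and 13.8 to 21.5 in the 6 others of low yield. Its log2 fold change was 1.06 (SE 0.31, edgeR adjusted p = 0.574), and the same 4 samples were highest as for esr1. That of hdac3 (LOC117431204) was 0.55 (edgeR adjusted p = 0.584).

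Among the chaperones that hold the unbound receptor, st13 (LOC131733793) stood at 960 ± 175 FPKM in high yield and 621 ± 67.1 in low yield, a log2 fold change of 0.62 (edgeR adjusted p = 0.574). The co-chaperone fkbp5 had log2 fold changes of -1.39 (LOC131702083) and -1.35 (LOC117396943), with edgeR adjusted p of 0.574 and 0.578. The first of these was at 222 FPKM in L2 and 169 in L5, and its log2 fold change was -0.72 without these libraries. Of the partner transcription factors, jun (LOC117416589) had a log2 fold change of -1.99 and nr5a2 of -2.83, with edgeR adjusted p of 0.584 and 0.601. That of jun was -0.64 without L2 and L5. The row nr5a2 had 122 counts over all samples, reached at most 0.348 FPKM, in L2, and had no fit without L2 and L5. The ovary factor foxl2 (LOC117416901) stood at 0.0376, 0.0336, 0.205 and 0.463 FPKM in the high-yield pairs, 4.60 in L2, 0.584 in L5 and 0.0756 to 0.270 in the 6 others of low yield. Within high yield this row, like the foxl2 row LOC117423332, was thus lowest in the same pairs as the beta rows. Other foxl2 rows, on few counts in high yield, did not share this order. LOC117425485 was highest in H1 with H5 (0.0514 FPKM), and LOC117432222 was higher in H2 with H6 (0.0106) than in H3 with H7 (0.00376). The log2 fold change of LOC117416901 was -1.64 (SE 1.09, edgeR adjusted p = 0.654), and 0.096 without L2 and L5.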

How the data were processed

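Poly(A) RNA of 16 ovary samples was sequenced, and adapters were trimmed with cutadapt 1.9, per the submitters' processing notes. Neither aligner, counter, genome build nor annotation is given in the sources used here. For each gene, the deposited table holds raw counts and, per the file headers, FPKM by the authors. As the counter is not given, sampling noise of the counts need not be Poisson, and FPKM carry no correction for a few very abundant genes. Gene spans are those of the deposited table, and base sequences and coordinates are not used here.

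Near-identical libraries were mutual best partners whose variance was under 10 times Poisson (genes with at least 20 counts), and their counts were summed. Counts were tested with edgeR 4.0.16 (filterByExpr, TMM, quasi-likelihood F test, two-sided, Benjamini-Hochberg over all tested genes, threshold 0.05) on 4 against 8 samples. Fold changes are high over low yield, and correlations use log2 CPM with a prior count of 2. The SE of an edgeR log2 fold change was taken as its absolute value divided by the square root of the F statistic. P-values set the difference between groups against the spread between these samples. Alternatives used DESeq2 1.42.0, limma 3.58.1 on log2(FPKM + 1) and other scalings, filters and sample sets. The scripts were tested on simulated data.

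Receptor rows, lists and the rule for named genes were chosen with earlier results of these data known. In each of 8 lists the rule took up to 3 tested rows with the smallest p, together with a set of fixed names and the 5 genes most like each receptor. Some genes that the rule names are not reported here. Genes were matched by symbol or description. Software was R 4.3.3, matplotlib 3.10.9, scipy 1.17.1, numpy 2.4.6, pandas 2.3.3 and Python 3.11.15.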

Additional observations from a re-analysis of the deposited data

How the results depend on the processing

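No receptor passed the test under any alternative run. The log2 fold change of esr1 kept its sign in all 24 alternatives (0.19 to 1.51), and those of the other rows were below 0 except as follows. Without L2 and L5 they were 0.79 for LOC117402328, 0.49 for LOC117419823 and 0.44 for LOC117963936, and an exact permutation test on log2 CPM, added after the data were seen, gave 0.024 for LOC117402328 (p = 0.988). The cause was not tested. DESeq2 gave -0.43 for LOC117402328, and limma on log2(FPKM + 1) gave -0.44. Leaving out each sample in turn gave 0.19 to 1.28 for esr1, -2.35 to -0.45 for LOC117402328, -1.68 to -0.61 for LOC117419823, -1.99 to -0.69 for LOC117963936 and 0.83 to 2.40 for the log2 ratio of esr1 to the beta receptor, which passed once (exact permutation p = 0.0424, without the pair H3 with H7). The count of called genes was 0, but 16 with 16 separate libraries and 86 with DESeq2. Members called in the 8 lists of ligand, partners and targets numbered 0 throughout. Of the cell type marker lists, DESeq2 called 1 endothelial and 1 granulosa row.

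Replicate numbers were not used as pairs in the main fit. Same-numbered correlations ran from -0.20 to 0.39. Of the libraries, 3 of 8 in high yield and 2 of 8 in low yield correlated best with their own number. Whether the numbers mark pairs was not tested. With the replicate block on 16 libraries the log2 fold changes were 0.80, -0.12, -0.53 and -0.67 for the rows in the order above, 0 genes were called (4627 at an unadjusted p under 0.05), and the ratio difference was 1.62 (exact permutation p = 0.172). With 4 high-yield samples the SEs of 0.64 to 1.38 limit what could be detected.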
